A study of Mus musculus with 11 samples.

Results

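Mouse stomach progenitor lines carried high transcript levels of a group of inflammation-related genes, most of which encode secreted proteins. Olr1 and Serpinb2 were exceptions, high in the C57BL/6J line but in the tsA58 line only on replicate 3. The genes described here are Saa3, Olr1, Serpinb2, Il6, Lif, Il1rl1, Ptgs2, Ptx3 and Lcn2, listed by name and found through the single gene symbol of each probe set in the array's annotation table. Of the 9 genes, 8 had such a probe set, with 11 probe sets in all, out of 18193 named genes on the array. Il1rl1 was not analysed here. These genes were chosen on their levels in the cultured lines, so every difference that involves a line is given for them as a description, with a standard error and no p-value. Counts of members past the call rule in such comparisons are also description only, since the choice of the genes favoured that outcome. All 8 passed the filter on low values, but Saa3, Olr1, Serpinb2, Il6 and Lif were below the array median on at least 3 of the 5 tissue arrays. Of these, Il6, Lif and Olr1 were below it on all 5 and passed only through their line arrays.

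RNA was profiled on 11 Affymetrix Mouse Genome 430.2 arrays in 4 groups. The tsA58 line (2xSCS70, 3 arrays) is a clonal line from the gastric tunica muscularis of H-2Kb-tsA58 mice. The transgene of these mice is a temperature-sensitive SV40 large T antigen driven by the interferon-inducible H-2Kb promoter, and the line was held in NSCPM, a neural stem cell medium, at 39.5 °C with no interferon-gamma. The C57BL/6J line (2xSCS2F10, 3 arrays) is a clonal line from the same muscle layer of wild-type mice, kept in that medium with 5% chick embryo extract at 37 °C. The tsA58 tissue (3 arrays) and the C57BL/6J tissue (2 arrays) were the stomach muscle wall of the source strains. The samples are labelled as biological replicates, but nothing says that they came from separate cultures or animals, so errors and p-values measure only the spread between these arrays. Each line is 1 clone, so strain, transgene, temperature, extract and clone cannot be told apart between the lines. The labels call them stem or progenitor cells of the ICC (interstitial cells of Cajal), which pace the gut. Levels below are log2 intensities, 1 unit being a doubling. A level near or below the array medians (4.66 to 4.84) was read as close to background. In bulk samples, fewer cells of a type and less RNA per cell cannot be told apart.

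Interleukin 6 and leukaemia inhibitory factor are cytokines that signal through the shared receptor subunit gp130 (Il6st) and the transcription factor STAT3. Saa3, Ptx3 and Lcn2 encode acute-phase and innate-defence proteins, and Ptgs2 encodes cyclooxygenase-2, which makes the precursor of the prostaglandins. In many cell types these genes respond to interleukin 1 or tumour necrosis factor through NF-kB and C/EBP factors. The label "secretome" fits only some of the set, since Ptgs2 is an enzyme of internal membranes, Olr1 (LOX-1) is a cell-surface receptor for oxidised lipoprotein, and Serpinb2 (plasminogen activator inhibitor type 2) is largely kept inside cells.

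The promoters of 4 members are shown, those of both cytokines, Il6 and Lif, of Ptgs2, and of Olr1, whose pattern across arrays differed from these. They are the 250 bases before the RefSeq transcript start (GRCm38.p6), read 5′ to 3′ on the gene's strand, with matches to the kappaB, AP-1 and C/EBP motifs in capitals. The spans are chr5:30012864-30013113 (plus strand) for Il6, chr11:4257318-4257567 (plus strand) for Lif, chr1:150099781-150100030 (plus strand) for Ptgs2 and chr6:129507166-129507415 (minus strand) for Olr1.
Il6: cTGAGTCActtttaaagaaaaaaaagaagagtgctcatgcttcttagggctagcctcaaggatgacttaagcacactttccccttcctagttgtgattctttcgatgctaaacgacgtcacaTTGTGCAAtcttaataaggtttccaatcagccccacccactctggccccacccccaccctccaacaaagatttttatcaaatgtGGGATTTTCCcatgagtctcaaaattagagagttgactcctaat
Lif: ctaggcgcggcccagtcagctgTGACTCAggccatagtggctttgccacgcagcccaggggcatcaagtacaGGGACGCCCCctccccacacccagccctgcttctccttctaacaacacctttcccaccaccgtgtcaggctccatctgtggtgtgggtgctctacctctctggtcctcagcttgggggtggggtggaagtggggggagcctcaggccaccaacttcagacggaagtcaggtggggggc
Ptgs2: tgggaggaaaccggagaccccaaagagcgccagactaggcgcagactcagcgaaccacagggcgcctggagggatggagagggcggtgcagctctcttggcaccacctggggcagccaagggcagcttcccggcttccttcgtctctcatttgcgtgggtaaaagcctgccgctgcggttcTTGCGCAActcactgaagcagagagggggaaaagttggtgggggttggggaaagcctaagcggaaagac
Olr1: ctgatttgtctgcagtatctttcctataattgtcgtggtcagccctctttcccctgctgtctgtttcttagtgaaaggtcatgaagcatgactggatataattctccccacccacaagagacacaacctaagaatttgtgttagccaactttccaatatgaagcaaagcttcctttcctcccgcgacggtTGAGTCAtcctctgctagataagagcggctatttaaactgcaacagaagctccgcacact
The Il6 window held a match of each of the 3 kinds, the Lif window 1 kappaB stretch and 1 AP-1 match, the Ptgs2 window 1 C/EBP stretch, and the Olr1 window 1 AP-1 match. The Lif kappaB and Ptgs2 C/EBP stretches each match on both strands and are 1 place, not several. Both strands were searched. The AP-1 motif was TGANTCA. The C/EBP motif was TTGCNNAA and the STAT motif TTCNNNGAA, and the kappaB motif and the TATA box are given by name. Over the 8 genes, a C/EBP match was present in 6, an AP-1 match in 4, a kappaB match in 2, a STAT match in 1 and a TATA match in 1. Among 32526 RefSeq promoters of the same length, the shares were 9.57% for C/EBP, 6.73% for AP-1, 7.28% for kappaB, 7.04% for STAT and 12.3% for TATA. A match is a run of letters, and no binding was measured.

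Before the members are described, 1 array needs mention. Replicate 3 of the tsA58 line correlated at 0.936 and 0.918 with replicates 1 and 2, which correlated at 0.978 with each other. Among 13285 genes tested, 143 were at least 2 log2 units higher on it than on both of the others, against 7 and 11 for replicates 1 and 2. The 7 mesothelium markers summed to 13.66 on replicate 3, against 11.19 and 10.01 on replicates 1 and 2. On the C57BL/6J line arrays they summed to 13.32 to 13.76, on the tsA58 tissue arrays to 12.25 to 12.74 and on the C57BL/6J tissue arrays to 12.26 to 12.52. Fibroblast markers summed to 12.13, 12.13 and 13.83 on tsA58 line replicates 1 to 3 and to 13.12 to 13.35 on C57BL/6J line arrays. Smooth muscle markers summed to 9.29, 8.38 and 11.05 on tsA58 line replicates 1 to 3 and to 10.86 to 11.32 on C57BL/6J line arrays. Both of these sums were higher on every tissue array. The actin 3′ minus 5′ difference of tsA58 line replicate 3 was 0.05 log2, against 0.51 and 0.85. Members are given with and without replicate 3, and so are some of the partners whose call or difference changed when it was left out. Kit, the defining marker of mature ICC, was below the array medians in both lines. It read 3.16 to 3.79 on tsA58 line arrays and 3.35 to 3.87 on C57BL/6J line arrays. Its tissue levels were 7.34 to 8.61 in tsA58 and 6.83 to 7.47 in C57BL/6J. Of 4 ICC markers, 3 (Ano1, Gja1 and Prkcq) were above the array median on every line array, and 4 on every tissue array. Ano1 and Prkcq were lower on every line array than on the tissue arrays. Gja1 read 10.10 to 10.63 on tsA58 line arrays and 9.54 to 10.32 on C57BL/6J line arrays. In tissue it read 10.08 to 10.73 in tsA58 and 10.76 and 11.18 in C57BL/6J.

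**Figure D1:**
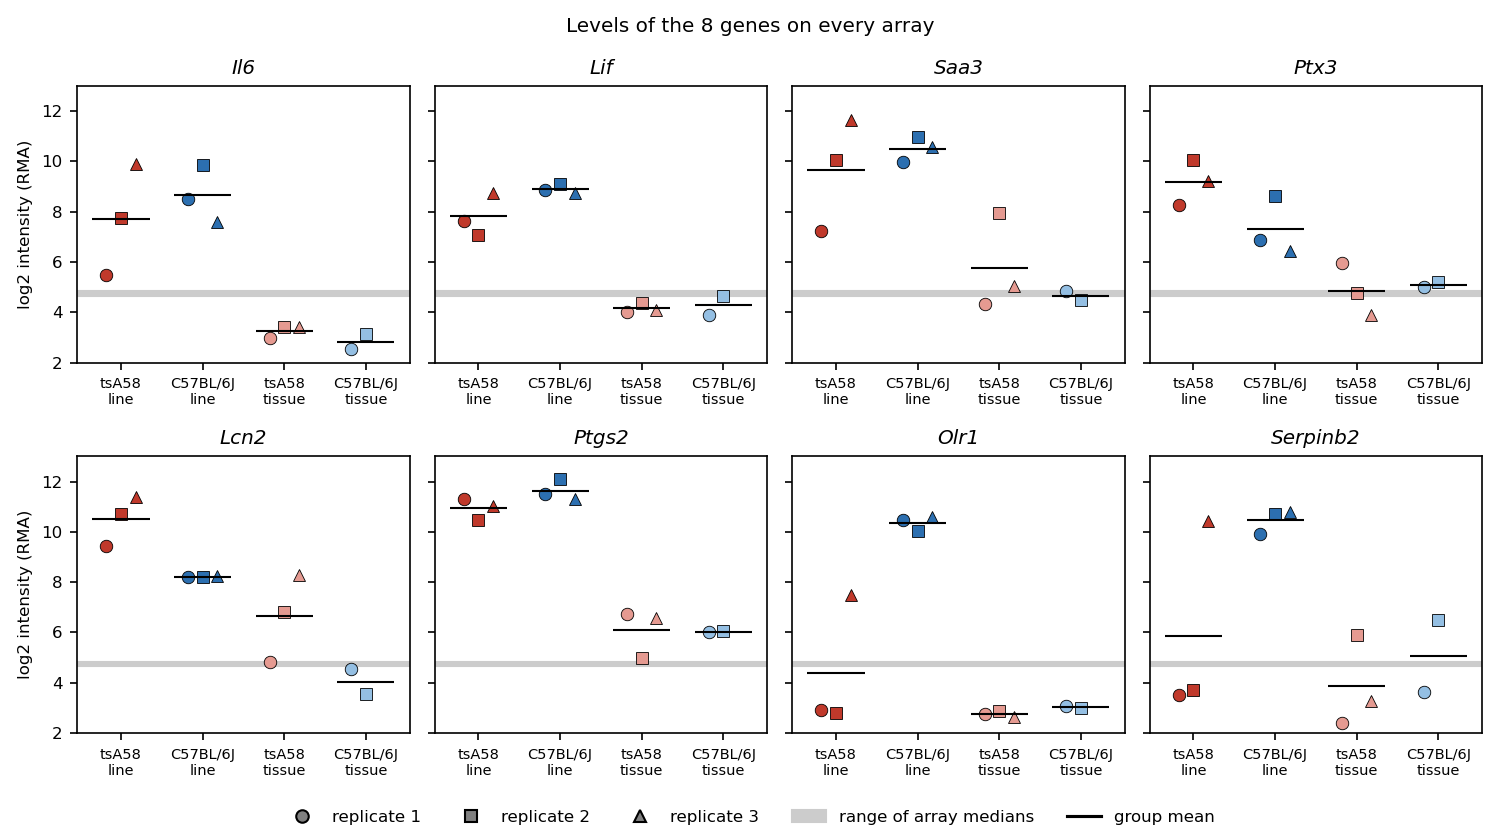
Log2 intensity of the main probe set of each of the 8 genes on all 11 arrays, by group, with marker shape for the replicate, a black line for the group mean and a grey band for the array medians (4.66 to 4.84). Il6, Lif, Ptgs2 and Ptx3 separate both lines from both tissues. Olr1 and Serpinb2 are high on the 3 C57BL/6J line arrays and, in the tsA58 line, on replicate 3.

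Il6, the gene of interleukin 6, was measured by 1 probe set (1450297_at). Its levels were 5.48, 7.75 and 9.91 on tsA58 line replicates 1 to 3 and 8.50, 9.85 and 7.60 on the C57BL/6J line arrays. They were 2.98, 3.43 and 3.40 in tsA58 tissue and 2.54 and 3.12 in C57BL/6J tissue. Every line array lay above every tissue array, the tissue arrays were all below the array medians, and the 2 lines overlapped. The difference was 4.44 ± 0.91 (SE) for the tsA58 line minus its tissue, and 5.82 ± 1.02 for the C57BL/6J line minus its tissue. Because the tissue levels lie in the background range, these differences understate the fold. The tsA58 line minus the C57BL/6J line came to -0.94 ± 0.91, within the spread of the tsA58 line arrays, and to -2.04 without tsA58 line replicate 3.

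Lif, a cytokine of the interleukin 6 family that maintains mouse embryonic stem cells in culture, had 2 probe sets. On 1421207_at the levels were 7.61, 7.08 and 8.73 in the tsA58 line and 8.88, 9.12 and 8.75 in the C57BL/6J line, against 4.0, 4.37 and 4.10 in tsA58 tissue and 3.90 and 4.66 in C57BL/6J tissue. Both lines were clear of both tissues, and the tsA58 line lay below the C57BL/6J line on every array, replicate 3 by a small margin. The line minus tissue difference was 3.65 ± 0.37 in tsA58 and 4.64 ± 0.41 in C57BL/6J, and the tsA58 line minus the C57BL/6J line came to -1.11 ± 0.37. The second probe set, 1450160_at, was dimmer, at 4.17 to 6.62 on tsA58 line arrays and 4.17 to 5.26 on C57BL/6J line arrays. It gave smaller line minus tissue differences, 1.32 ± 0.53 in tsA58 and 1.50 ± 0.59 in C57BL/6J, and a line minus line difference of the opposite sign (0.33 ± 0.53).

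Saa3, an acute-phase serum amyloid A made outside the liver, was measured by 1450826_a_at. The tsA58 line arrays read 7.22, 10.06 and 11.65 and the C57BL/6J line arrays 9.99, 10.96 and 10.59. The tsA58 tissue arrays read 4.33, 7.93 and 5.05 and the C57BL/6J tissue arrays 4.84 and 4.49. The C57BL/6J line was separate from its tissue, whereas in tsA58 the lowest line array (replicate 1) lay below the highest tissue array (replicate 2). That tissue array also had the highest summed macrophage markers (13.26, against 11.81 and 12.56 on the other tsA58 tissue arrays and 11.55 and 11.61 in C57BL/6J tissue), and their part in its Saa3 level was not tested. The line minus tissue difference was 3.87 ± 1.07 in tsA58 and 5.85 ± 1.20 in C57BL/6J.

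Ptx3, a long pentraxin that binds microbes and complement and helps organise hyaluronan matrix, read 8.25, 10.05 and 9.22 in the tsA58 line and 6.86, 8.64 and 6.43 in the C57BL/6J line on 1418666_at. Tissue levels were 5.95, 4.76 and 3.88 in tsA58 and 5.01 and 5.20 in C57BL/6J. Each line was above its tissue on every array, and the lines overlapped in 1 place, C57BL/6J replicate 2 above tsA58 replicate 1. The line minus tissue difference was 4.31 ± 0.66 in tsA58 and 2.21 ± 0.74 in C57BL/6J, so Ptx3 had the larger estimate in tsA58, unlike the 7 other members. A second probe set, 1456903_at, was at 3.31 to 3.68 on all 11 arrays, below the filter, and carried no information on Ptx3.

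Lcn2, the siderophore-binding protein lipocalin 2, read 9.45, 10.70 and 11.38 in the tsA58 line and 8.19, 8.19 and 8.25 in the C57BL/6J line (1427747_a_at). In tissue it read 4.84, 6.79 and 8.28 in tsA58 and 4.53 and 3.57 in C57BL/6J. It was the only one of the 8 genes whose tsA58 line arrays were all above the C57BL/6J line arrays, with a difference of 2.29 ± 0.74. The line minus tissue difference was 3.87 ± 0.74 in tsA58 and 4.16 ± 0.83 in C57BL/6J. The C57BL/6J line arrays lay close together, and the tsA58 line arrays were more spread.

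Ptgs2, the inducible cyclooxygenase, had 2 probe sets. On 1417262_at the tsA58 line read 11.29, 10.49 and 11.02 and the C57BL/6J line 11.51, 12.10 and 11.31, against 6.73, 4.98 and 6.57 in tsA58 tissue and 6.03 and 6.04 in C57BL/6J tissue. Line and tissue arrays were far apart in both strains, and all the tsA58 line arrays were below the C57BL/6J line arrays, by a small margin. The difference was 4.84 ± 0.42 in tsA58 and 5.61 ± 0.47 in C57BL/6J. The second probe set, 1417263_at, gave 5.87 ± 0.43 in tsA58 and 7.68 ± 0.48 in C57BL/6J, with tissue arrays at 3.61 to 4.86. The tsA58 line minus the C57BL/6J line was -0.71 ± 0.42 on the first and -1.25 ± 0.43 on the second.

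Olr1 behaved differently. Its probe set (1419534_at) read 2.91, 2.81 and 7.50 in the tsA58 line and 10.47, 10.03 and 10.60 in the C57BL/6J line, against 2.74, 2.87 and 2.63 in tsA58 tissue and 3.06 and 2.98 in C57BL/6J tissue. Replicates 1 and 2 of the tsA58 line were at tissue level and below the array medians, and replicate 3 stood between them and the C57BL/6J line. The C57BL/6J line exceeded its tissue by 7.35 ± 1.09, a difference that understates the fold because its tissue arrays were in the background range. The tsA58 line minus its tissue was 1.65 ± 0.97 with all arrays and 0.11 without replicate 3, and the tsA58 line minus the C57BL/6J line was -5.96 ± 0.97 and, without replicate 3, -7.51.

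Serpinb2, an inhibitor of urokinase and tissue plasminogen activator, had the same pattern in the lines. It read 3.51, 3.70 and 10.42 in the tsA58 line and 9.93, 10.70 and 10.77 in the C57BL/6J line, against 2.41, 5.90 and 3.27 in tsA58 tissue and 3.61 and 6.48 in C57BL/6J tissue (1419082_at). Replicate 3 of the tsA58 line reached the range of the C57BL/6J line, while replicates 1 and 2 lay among the tissue arrays, and 1 tissue array of each strain was above the medians. The tsA58 line minus its tissue was 2.02 ± 1.64, and -0.26 without replicate 3, against 5.42 ± 1.84 for the C57BL/6J line minus its tissue. No other tested gene had a larger excess on replicate 3 over the mean of replicates 1 and 2 than Serpinb2, at 6.82.

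**Figure D2:**
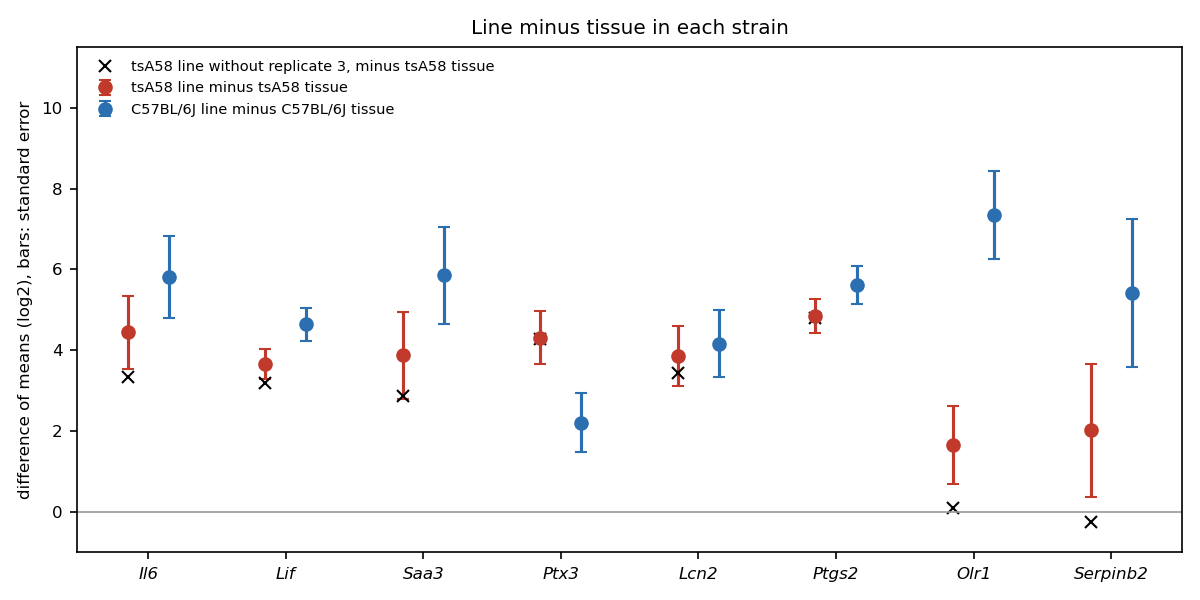
Line minus tissue difference of mean log2 intensity for each gene, with the tsA58 pair at left (red), the C57BL/6J pair at right (blue), standard errors as bars, and crosses for the tsA58 difference without replicate 3 of the line. Without that array Olr1 and Serpinb2 fall to 0.11 and -0.26, while Ptgs2 and Ptx3 stay at 4.79 and 4.28.

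Set against all genes, 6 of the 8 members passed the call rule (adjusted p below 0.05 and at least 2-fold) upward in the tsA58 line minus its tissue, where 12.8% of all genes were higher and 18.9% lower. All 8 passed it upward in the C57BL/6J line minus its tissue, where 17.5% were higher and 16.6% lower. Every line array was above every tissue array for 5 members in tsA58, against 23.8% of all genes, and for 8 members in C57BL/6J, against 41.9%. The median member difference was 3.87 in tsA58 (all genes -0.00) and 5.51 in C57BL/6J (all genes 0.12). Between the lines, 1 member was past the rule upward and 1 downward, where 8.38% of all genes were higher and 5.77% lower in the tsA58 line, and every tsA58 line array was above for 18.4%. In the difference of the line minus tissue differences, tsA58 minus C57BL/6J, the rule took 7.3% of all genes upward and 13% downward. The members' estimates there ran from -5.69 ± 1.46 for Olr1 to 2.10 ± 0.99 for Ptx3, which had the only positive one. Nothing is read from the member counts in these comparisons, since the genes were chosen for being high in the lines.

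The members thus differed in how they varied within the tsA58 line. The excess of replicate 3 over the mean of replicates 1 and 2 was 6.82 for Serpinb2, 4.64 for Olr1, 3.30 for Il6, 3.01 for Saa3, 1.39 for Lif, 1.31 for Lcn2, 0.13 for Ptgs2 and 0.08 for Ptx3. For Il6 and Saa3 replicate 3 was the highest of all line arrays, and replicate 1 lay below replicate 2. The number of tested genes with a larger excess was 7 for Olr1, 40 for Il6, 55 for Saa3, 410 for Lif, 449 for Lcn2, 4590 for Ptgs2 and 5154 for Ptx3. Without replicate 3 the tsA58 line minus its tissue was 3.34 for Il6, 2.87 for Saa3, 3.19 for Lif and 3.43 for Lcn2. The tsA58 line minus the C57BL/6J line was then -1.87 for Saa3, -1.57 for Lif, -0.75 for Ptgs2, 1.84 for Ptx3, 1.86 for Lcn2 and -6.86 for Serpinb2. Of 190 genes with all C57BL/6J line arrays at least 2 log2 units above tsA58 replicates 1 and 2, 46 were also at least 2 units higher on replicate 3, and Olr1 and Serpinb2 are of that kind. The mesothelium markers moved with them, as Upk3b, a uroplakin of mesothelial cells, read 8.80, 7.85 and 12.43 on tsA58 line arrays and 12.18 to 12.32 on C57BL/6J line arrays. Within the lines, the summed fibroblast and smooth muscle markers given above were also higher on replicate 3 than on replicates 1 and 2. The part of these cell types in the levels of Olr1 and Serpinb2 was not tested.

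**Figure D3:**
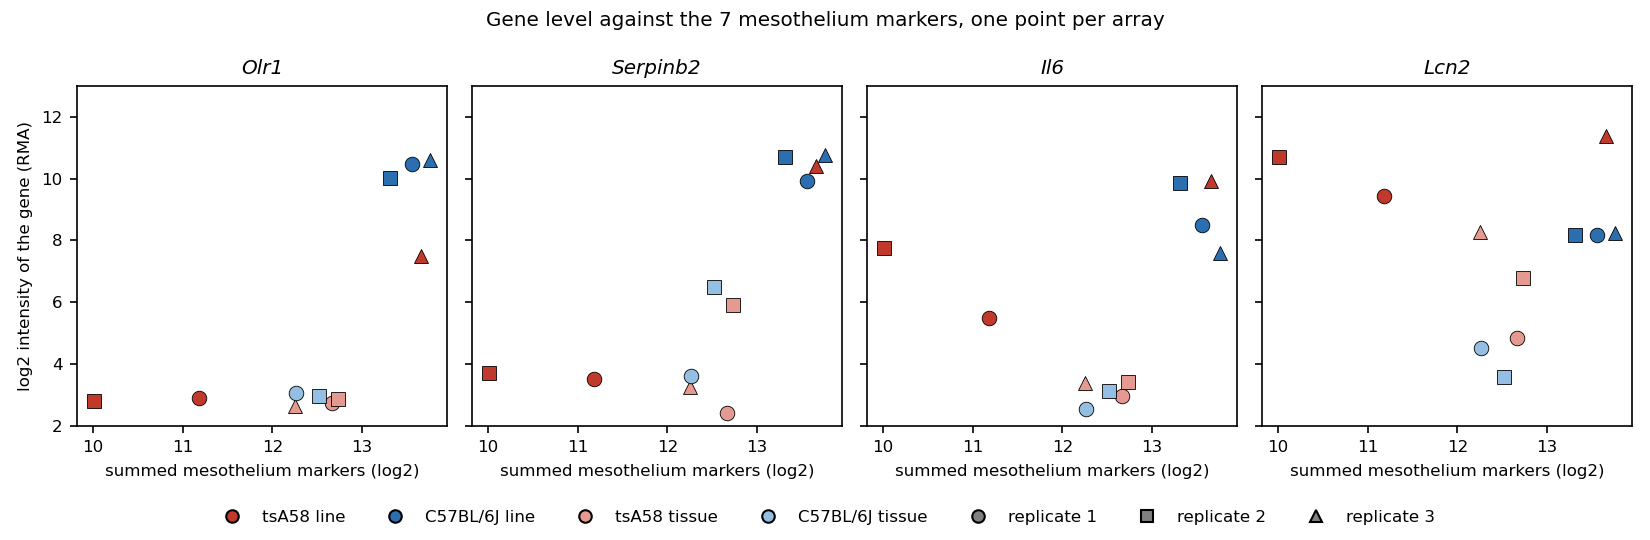
Log2 intensity of Olr1, Serpinb2, Il6 and Lcn2 (vertical axis) against the log2 of the summed intensity of 7 mesothelium markers (horizontal axis), 1 point per array, coloured by group and shaped by replicate. Olr1 and Serpinb2 are high on the 4 arrays with marker sums of 13.32 and above, whereas Lcn2 and Il6 are also high on tsA58 line replicate 2, where the sum is 10.01.

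Patterns across the 11 arrays separated the members further, as a description over arrays that share groups. Olr1 and Serpinb2 correlated at 0.919, Lif and Ptgs2 at 0.963, Il6 and Lif at 0.949, and Saa3 and Il6 at 0.943, whereas Olr1 and Lcn2 correlated at 0.328. The genes most like Olr1 were Wt1 (r = 0.992), a transcription factor of mesothelium and podocytes, Akr1c18 (0.986) and Glb1 (0.986). The nearest to Lif were Arid5a (0.993), an RNA-binding protein known to stabilise Il6 mRNA, Fosl1 (0.992), an AP-1 subunit, and Rhbdf2 (0.988), a partner of the protease that releases tumour necrosis factor. Ptgs2 was most like Prkg2 (0.989), Uhrf1bp1 (0.989) and Kansl2 (0.987), and Ptx3 most like Slc7a5 (0.976), an amino acid transporter, Tbpl1 (0.974) and Aldh1l2 (0.972). Saa3 was nearest to Tmem258 (0.961), Scrn3 (0.960) and Casp4 (0.945), the inflammatory caspase that senses lipopolysaccharide, and Il6 to Tnfrsf10b (0.974), Cd47 (0.970) and Tmem258 (0.970). Serpinb2 was nearest to Sema3e (0.958), Ikzf3 (0.956) and Fcgr4 (0.954), and Lcn2 to Pnpla7 (0.958), Cplane2 (0.956) and Ifi204 (0.956), an interferon-inducible gene. Some of these genes had group means near or below the array medians, close to background. Those means were 4.76 to 5.18 for Ikzf3, 3.81 to 4.76 for Cplane2 and 3.54 to 5.04 for Tnfrsf10b.

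Which comparison the choice of members rested on is not recorded, and low tissue levels may have been part of it. The tissue comparison involves no line level and was tested with limma and Benjamini-Hochberg adjustment over 13285 genes. Il6, Lif and Olr1 were among the tested genes only through their line arrays. The fit shared 1 spread per gene over all 11 arrays, so its errors and p-values also carry the spread of the line arrays. Lcn2 was the only member called in tsA58 tissue minus C57BL/6J tissue, where the rule took 9.56% of all genes upward and 3.21% downward, and 1 member had an unadjusted p below 0.05. Its levels of 4.84, 6.79 and 8.28 in tsA58 tissue were all above 4.53 and 3.57 in C57BL/6J tissue, a difference of 2.59 ± 0.83 (adjusted p = 0.0498). The call ended when any 1 of 8 arrays was left out, with differences of 1.77 to 3.49 over the 11 such fits and adjusted p up to 0.273. These were tsA58 line replicate 2, tsA58 tissue replicates 2 and 3, C57BL/6J line replicates 1, 2 and 3, and C57BL/6J tissue replicates 1 and 2. It also ended under 7 of 11 other alternatives, with adjusted p of 0.0592 under quantile and 0.0876 under loess scaling, 0.0668 with no filter, 0.158 with a floor, 0.220 with a 3′ to 5′ covariate, 0.126 with only the groups compared and 0.0720 with the replicate number as a block. Neutrophil markers, which accompany lipocalin 2 in granulocytes, summed lower in tsA58 tissue (6.63 to 7.55) than in C57BL/6J tissue (8.34 to 9.37). The C57BL/6J tissue sum came mainly from S100a8 (7.87 and 5.29) and S100a9 (8.31 and 7.60). Macrophage markers summed to 11.81 to 13.26 in tsA58 tissue and 11.55 to 11.61 in C57BL/6J tissue, and gastric epithelium markers to 14.37 to 16.02 in tsA58 tissue and 15.17 to 15.26 in C57BL/6J tissue. The part of neutrophil, macrophage and epithelial RNA in the difference was not tested.

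The 7 other members were not called between the tissues. Their differences were 1.11 ± 1.20 for Saa3 (limma, adjusted p = 0.562), 0.44 ± 1.02 for Il6 (adjusted p = 0.801), -0.12 ± 0.41 for Lif (adjusted p = 0.865) and 0.06 ± 0.47 for Ptgs2 (adjusted p = 0.942). For Ptx3 the difference was -0.24 ± 0.74 (adjusted p = 0.852), for Olr1 -0.27 ± 1.09 (adjusted p = 0.889) and for Serpinb2 -1.19 ± 1.84 (adjusted p = 0.695). The errors of Olr1 and Serpinb2 carry the wide spread of the tsA58 line arrays (SD 2.68 and 3.94). For Olr1 the SD was 0.12 in tsA58 tissue and 0.06 in C57BL/6J tissue, and all tsA58 tissue arrays were below the C57BL/6J tissue arrays. Levels at background on these arrays leave a difference undetectable rather than absent, above all for Il6, Lif and Olr1, whose tissue arrays were all below the array medians.

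Leukocyte markers in the lines were looked at because the members are known from such cells. Of the 13 macrophage markers, 4 were above the array median on each tsA58 line array and 5 or 6 on each C57BL/6J line array, against 12 or 13 on the tissue arrays. The defining markers C1qa, C1qb and Ptprc (CD45) were at 2.75 to 3.96 on tsA58 line arrays and 2.83 to 4.17 on C57BL/6J line arrays, below the medians. Adgre1 read 3.99 to 4.26 on tsA58 line arrays and 4.58 to 5.15 on C57BL/6J line arrays, and Csf1r 4.92 to 5.96 on tsA58 line arrays and 6.83 to 7.95 on C57BL/6J line arrays, both below the tissue arrays. Laptm5 read 5.75, 5.56 and 8.24 in the tsA58 line, against 5.04 to 5.41 in tsA58 tissue, and 5.70 to 5.79 in the C57BL/6J line, against 7.10 and 7.44 in C57BL/6J tissue. Cd14, the lipopolysaccharide co-receptor of that list, was above tissue in both lines, at 8.20 to 8.90 on tsA58 line arrays and 9.29 to 10.04 on C57BL/6J line arrays, against 5.93 to 7.38 in tsA58 tissue and 6.73 and 6.78 in C57BL/6J tissue. Of 8 neutrophil markers, 0 or 1 was above the median in the tsA58 line and 1 or 2 in the C57BL/6J line, where S100a8 read 8.56, 6.12 and 7.55. Of 9 mast cell markers, 1 was above it on each tsA58 line array and 2 on each C57BL/6J line array.

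Partners of the members were taken from 11 pathway lists, 135 genes in all, of which 120 had a probe set and 99 were tested with limma. They were not members, and their line differences were tested. The lists were chosen with earlier results of these data known, so their counts and p-values are not independent of that choice. In the tsA58 line minus its tissue 22 were called higher and 25 lower, against the 12.8% and 18.9% of all genes. In the C57BL/6J line minus its tissue 34 were higher and 16 lower (34.3% and 16.2%), against 17.5% and 16.6% of all genes. The tsA58 line minus the C57BL/6J line gave 6 higher and 10 lower (6.06% and 10.1%), against 8.38% and 5.77% of all genes. The counts per list below stand beside these same shares, and several of them are near the shares of all genes.

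**Figure D4:**
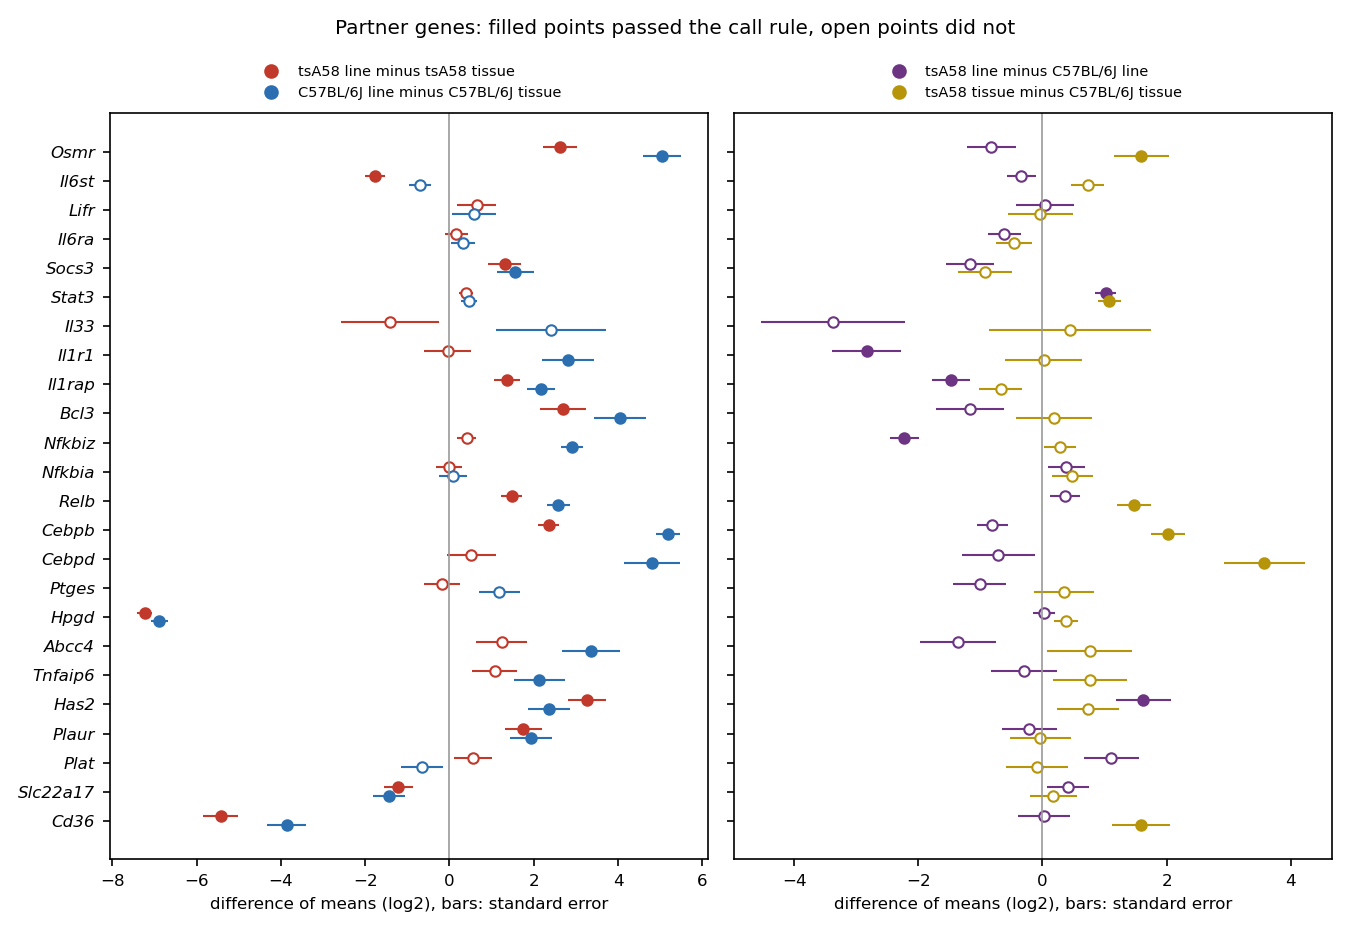
Difference of mean log2 intensity, with standard errors as bars, for 24 partner genes. The left panel shows line minus tissue for tsA58 (red) and C57BL/6J (blue), the right panel the tsA58 line minus the C57BL/6J line (purple) and tsA58 tissue minus C57BL/6J tissue (gold), and filled points passed the call rule, as Cebpb and Osmr did in both line minus tissue comparisons and Hpgd did downward.

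Among the receptors and signal genes of the interleukin 6 family, 2 of 11 were higher and 2 lower in the tsA58 line minus its tissue, and 4 higher and 0 lower in the C57BL/6J line. Dropping tsA58 line replicate 3, or tsA58 tissue replicate 1 or 2, left 1 higher in tsA58. Osmr, the receptor subunit for oncostatin M that pairs with gp130, read 9.21, 9.41 and 10.68 in the tsA58 line and 10.29, 10.97 and 10.51 in the C57BL/6J line, against 6.53, 7.56 and 7.34 in tsA58 tissue and 5.31 and 5.79 in C57BL/6J tissue. It rose by 2.62 ± 0.40 in tsA58 (adjusted p = 0.000374) and by 5.04 ± 0.45 in C57BL/6J (adjusted p = 1.11e-05). The ligand-specific receptor subunits Il6ra and Lifr did not pass the test in either strain, with Il6ra at 0.17 ± 0.26 in tsA58 and 0.32 ± 0.29 in C57BL/6J, and Lifr at 0.65 ± 0.46 in tsA58 and 0.58 ± 0.52 in C57BL/6J. Il6st fell by 1.76 on its main probe set in the tsA58 line (adjusted p = 0.00017), but its 3 other tested probe sets ran from -1.50 to 0.36. Socs3, a feedback inhibitor of this pathway, rose by 1.32 ± 0.39 in tsA58 and 1.56 ± 0.43 in C57BL/6J (adjusted p = 0.0172 and 0.013), calls that ended without tsA58 line replicate 3, tsA58 tissue replicate 1 or tsA58 tissue replicate 2 in the first and without C57BL/6J tissue replicate 2 in the second. Between the lines, Stat3 was called higher in the tsA58 line (1.02 ± 0.17, adjusted p = 0.00222), but its other probe sets ran from -0.80 to -0.26. Without tsA58 line replicate 3 the Stat3 difference was 0.89, short of the rule, and Socs3 was called lower (-1.36, adjusted p = 0.0335, against -1.17 ± 0.39 and 0.0532 with it). Of 4 ligands, Clcf1, a further gp130 cytokine, rose in the C57BL/6J line (3.53 ± 0.57, adjusted p = 0.000564) and 0 were called in the tsA58 line.

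In the NF-kB pathway 6 of 13 genes were higher and 1 lower in the tsA58 line minus its tissue, and 8 higher and 0 lower in the C57BL/6J line, with list medians of 0.83 and 2.09. Leaving out any 1 array gave 5 or 6 higher in tsA58 and 8 in C57BL/6J. Bcl3, a nuclear IkB protein that works with p50 and p52, read 7.38, 7.16 and 9.72 in the tsA58 line and 9.21, 9.48 and 9.07 in the C57BL/6J line, against 5.02 to 5.79 in tsA58 tissue and 5.18 and 5.22 in C57BL/6J tissue. It rose by 2.70 ± 0.55 in tsA58 (adjusted p = 0.00222) and by 4.05 ± 0.61 in C57BL/6J (adjusted p = 0.000355). Nfkbiz, the IkB-zeta coactivator needed for induction of Il6 and Lcn2 in mouse macrophages, read 8.15, 8.09 and 8.95 in the tsA58 line and 10.68, 10.65 and 10.54 in the C57BL/6J line, against 7.80 to 8.19 in tsA58 tissue and 7.64 and 7.79 in C57BL/6J tissue. It rose by 2.91 ± 0.26 in the C57BL/6J line (adjusted p = 1.14e-05) and not past the rule in the tsA58 line (0.41 ± 0.23, adjusted p = 0.173, with other probe sets at 1.04 and 1.31), and the tsA58 line was below the C57BL/6J line by 2.23 (adjusted p = 0.000117). In that last comparison 1 of its 2 other probe sets was at 0.03. Nfkbia, the classical inhibitor, was not called in either strain (-0.01 ± 0.30 in tsA58 and 0.09 ± 0.33 in C57BL/6J), with 4 other probe sets from -0.24 to 0.16 in tsA58 and from -0.31 to 1.88 in C57BL/6J.

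Of the 4 C/EBP factors tested, 2 were higher and 1, Cebpa, was lower in each line against its tissue. The Cebpa call was lost in 10 of the 11 fits that left out 1 array in tsA58 (all but tsA58 tissue replicate 1) and in 9 of 11 in C57BL/6J (all but tsA58 tissue replicates 1 and 2), so that 0 were lower. Cebpb read 10.75, 10.74 and 10.98 in the tsA58 line and 11.69, 11.75 and 11.44 in the C57BL/6J line, against 9.03, 7.93 and 8.43 in tsA58 tissue and 6.37 and 6.51 in C57BL/6J tissue. All 4 groups were separate from each other. It rose by 2.36 ± 0.25 in tsA58 (adjusted p = 3.21e-05) and 5.19 ± 0.28 in C57BL/6J (adjusted p = 3.92e-07), and tsA58 tissue was above C57BL/6J tissue by 2.02 ± 0.28 (adjusted p = 0.00158). Cebpd, its partner in the acute-phase response, read 9.94, 10.06 and 11.60 in the tsA58 line and 11.22, 11.23 and 11.28 in the C57BL/6J line, against 10.43, 8.55 and 11.05 in tsA58 tissue and 6.53 and 6.35 in C57BL/6J tissue. It rose in the C57BL/6J line (4.81 ± 0.65, adjusted p = 0.000184, with the other probe set at 0.84) and overlapped with tissue in tsA58 (0.52 ± 0.59, adjusted p = 0.495). The 6 promoters with C/EBP letters include those of Il6 and Ptgs2 printed above.

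Of 14 interleukin 1 family and signal genes, 2 were higher and 3 lower in the tsA58 line minus its tissue, and 4 higher and 2 lower in the C57BL/6J line. Dropping tsA58 line replicate 1 or tsA58 tissue replicate 1 left 1 higher in tsA58. The C57BL/6J count lower became 0 without C57BL/6J line replicate 2 or C57BL/6J tissue replicate 2, and 1 without C57BL/6J tissue replicate 1. Il1a and Il1b did not pass the filter, with levels of 2.96 to 4.09 on tsA58 line arrays and 3.22 to 4.42 on C57BL/6J line arrays, below the medians. Il33, the ligand of the Il1rl1 receptor, read 4.89, 6.71 and 11.01 in the tsA58 line and 10.35, 11.05 and 11.32 in the C57BL/6J line, against 8.30 to 9.42 in tsA58 tissue and 8.39 and 8.61 in C57BL/6J tissue. Replicate 3 of the tsA58 line was in the range of the C57BL/6J line, as for Serpinb2, and neither line passed the test against its tissue (-1.41 ± 1.16 in tsA58, adjusted p = 0.348, and 2.41 ± 1.30 in C57BL/6J, adjusted p = 0.154). Without replicate 3 the tsA58 line was called lower than its tissue (-3.14, adjusted p = 0.000808) and lower than the C57BL/6J line (-5.11, adjusted p = 0.000118, against -3.37 ± 1.16 and adjusted p = 0.0593 with it). Il1rap, the co-receptor shared by the interleukin 1 and interleukin 33 receptors, rose by 1.37 ± 0.31 in tsA58 and by 2.17 ± 0.34 in C57BL/6J (adjusted p = 0.004 and 0.000473). Il1r1, the signalling receptor, read 6.25, 5.93 and 8.64 in the tsA58 line and 9.49, 9.77 and 10.06 in the C57BL/6J line. The tsA58 line was below the C57BL/6J line by 2.83 (adjusted p = 0.00525).

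The prostanoid list around Ptgs2 had 2 of 15 genes higher and 7 lower in the tsA58 line minus its tissue, and 3 higher and 4 lower in the C57BL/6J line. The tsA58 count higher became 1 without tsA58 line replicate 1 or without any 1 of the tsA58 tissue arrays. The C57BL/6J count lower became 1 without C57BL/6J line replicate 1 or C57BL/6J tissue replicate 2, and 2 without C57BL/6J line replicate 2 or C57BL/6J tissue replicate 1. Hpgd, which degrades prostaglandin E2, read 3.09 to 3.30 on tsA58 line arrays and 3.01 to 3.27 on C57BL/6J line arrays, against 10.15 to 10.66 in tsA58 tissue and 10.15 and 9.94 in C57BL/6J tissue. It fell by 7.24 in tsA58 (adjusted p = 6.98e-10) and by 6.88 in C57BL/6J (adjusted p = 4.46e-09), to below the array medians, and its other probe set gave -1.88 in tsA58 and -3.63 in C57BL/6J. Ptges, the inducible prostaglandin E synthase, did not pass the test (-0.17 ± 0.43 in tsA58 and 1.18 ± 0.48 in C57BL/6J). Without tsA58 line replicate 3, the tsA58 line minus the C57BL/6J line was -1.33 for Ptges (adjusted p = 0.0424). Slco2a1, a prostaglandin uptake carrier, was below the C57BL/6J line by 4.01 in the tsA58 line (adjusted p = 2.64e-05), with other probe sets from -2.68 to -0.40. Abcc4, an exporter of prostaglandins, rose in the C57BL/6J line (3.36 ± 0.68, adjusted p = 0.00225) and read 8.48, 8.69 and 5.99 in the tsA58 line, with replicate 3 the low one.

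Among acute-phase and pentraxin partners 2 of 6 were higher and 0 lower in the tsA58 line minus its tissue, and 4 higher and 0 lower in the C57BL/6J line. Without tsA58 tissue replicate 1 the tsA58 counts were 1 higher and 2 lower, and without C57BL/6J tissue replicate 1 or 2 the C57BL/6J count higher was 2. Has2, a hyaluronan synthase whose product is bound in a matrix by Tnfaip6 and Ptx3, rose by 3.26 ± 0.45 in tsA58 (adjusted p = 0.000185) and by 2.37 ± 0.50 in C57BL/6J (adjusted p = 0.00282). Like Ptx3, it was higher in the tsA58 line than in the C57BL/6J line (7.70, 6.24 and 7.66 against 5.50, 5.18 and 6.04; 1.63 ± 0.45, adjusted p = 0.0247), which missed the rule when tsA58 line replicate 1 or 3, or C57BL/6J line replicate 1 or 2, was dropped (adjusted p up to 0.0957). Cp, the copper oxidase ceruloplasmin, rose in the C57BL/6J line by 4.76 ± 0.70 (adjusted p = 0.000311), with levels of 10.48, 10.82 and 11.12. In the tsA58 line it read 8.22, 8.06 and 10.50, and its call there (2.01 ± 0.63, adjusted p = 0.0224) ended without tsA58 tissue replicate 1 and was 1.22 (adjusted p = 0.0493) without tsA58 line replicate 3, while other probe sets ran from -1.15 to 2.44.

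Around Lcn2, 0 of 6 lipocalin receptor and iron genes were higher and 3 lower in the tsA58 line minus its tissue, and 2 higher and 2 lower in the C57BL/6J line. The count higher was 1 in tsA58 without tsA58 line replicate 2 or tsA58 tissue replicate 1, and the count lower 1 in C57BL/6J without C57BL/6J tissue replicate 1. Slc22a17, a receptor for lipocalin 2, fell by 1.21 in tsA58 and by 1.44 in C57BL/6J (adjusted p = 0.0131 and 0.00963), calls that ended without tsA58 line replicate 1 or tsA58 tissue replicate 1 in the first and without C57BL/6J tissue replicate 1 in the second. Slc40a1, the iron exporter ferroportin, fell by 2.34 in tsA58 and by 4.35 in C57BL/6J (adjusted p = 0.00298 and 0.000122). Around Serpinb2, 1 of 8 plasminogen activator and serpin genes was higher and 1 lower in the tsA58 line minus its tissue, and 2 were higher (1 without C57BL/6J tissue replicate 1) and 2 lower in the C57BL/6J line. Plaur, the urokinase receptor, rose by 1.75 ± 0.44 in tsA58 and by 1.93 ± 0.49 in C57BL/6J (adjusted p = 0.00771 and 0.0083), the second call ending without C57BL/6J tissue replicate 1. Around Olr1, 1 of 9 scavenger receptors was higher and 6 lower in the tsA58 line minus its tissue, and 1 higher and 4 lower (2 without C57BL/6J tissue replicate 2) in the C57BL/6J line. Cd36, another receptor for oxidised lipoprotein, fell by 5.43 in tsA58 and by 3.87 in C57BL/6J (adjusted p = 2.88e-06 and 8.36e-05), to levels below the medians in both lines.

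Of 9 other secreted cytokines, 4 were higher and 1 lower in the tsA58 line minus its tissue, and 3 higher and 1 lower (0 without C57BL/6J tissue replicate 1 or 2) in the C57BL/6J line. Csf1, the macrophage growth factor, rose by 2.35 ± 0.19 in tsA58 and by 2.25 ± 0.21 in C57BL/6J (adjusted p = 3.87e-06 and 1.63e-05). Vegfa, the vascular growth factor, rose by 2.46 ± 0.29 in tsA58 and by 4.30 ± 0.33 in C57BL/6J (adjusted p = 7.28e-05 and 4.44e-06). Tslp, an epithelial-type alarm cytokine, read 8.02, 7.30 and 5.69 in the tsA58 line and 3.97, 4.34 and 4.05 in the C57BL/6J line, and rose in the tsA58 line (2.58 ± 0.51, adjusted p = 0.00187). Il15, which sustains natural killer cells, was above the C57BL/6J line in the tsA58 line by 3.15 ± 0.40 (adjusted p = 0.000406). For Tslp and Il15 replicate 3 was the lowest tsA58 line array, the reverse of Olr1 and Serpinb2.

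Between the tissues, 18 of the 99 partners were called higher and 2 lower in tsA58, against 9.56% and 3.21% of all genes. Cebpd was higher by 3.57 ± 0.65 (adjusted p = 0.00482), although its other probe set gave -0.23, and Tgfb1 by 1.84 ± 0.32 (adjusted p = 0.00373). Without C57BL/6J tissue replicate 1 or 2 the 20 calls became 9 or 10. These tissue differences enter the comparison of strains, where 5 partners were called higher and 21 lower, against 7.3% and 13% of all genes. Without either of the C57BL/6J tissue arrays those 26 calls became 14. Scaling each array to its hybridisation controls, whose means ran from 7.52 to 10.96, moved the median of all genes by 2.13 log2 units between the tissues, 1.49 between the lines, 1.23 in the C57BL/6J line minus tissue and 0.60 in the tsA58 line minus tissue, so directions here are relative to the bulk of genes on an array. Under that scaling the tsA58 line minus the C57BL/6J line changed sign for Saa3 (0.62), Il6 (0.55), Lif (0.38) and Ptgs2 (0.78).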

How the data were processed

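RNA from 11 samples (about 50 ng each, amplified in 2 rounds, per the labels' protocols) was hybridised to Affymetrix Mouse Genome 430.2 arrays. The deposited values are log2 intensities, for which the submitters' processing notes name RMA, and they were used as given. Of 45101 probe sets, 34945 had a single gene symbol in the platform annotation, and sets with several symbols or none were not named. Where a gene had several sets, the one of highest mean over all arrays stood for it.

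Genes above the array median on at least 2 arrays were tested (13285 of 18193). One limma 3.58.1 model in R 4.3.3, with 4 group means and no covariate (7 residual degrees of freedom), gave every comparison. A call needed a Benjamini-Hochberg adjusted p below 0.05 over all tested genes and at least a 2-fold difference. The number of arrays, 2 or 3 per group, limits the precision. Motif counts were made in Python 3.11.15 with pandas 2.3.3 and numpy 2.4.6, and figures with matplotlib 3.10.9. Promoters were from RefSeq (GRCm38.p6). The fit was tested on simulated data.

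Beside the members, the genes named were drawn from up to 3 called genes of largest change per pathway list and comparison and a fixed set of direct partners whether called or not. Cell type markers were added, and for each member the 3 characterised genes with the highest Pearson r over the 11 arrays. Not every gene under this rule is described with its line differences, among those left out being Il18, Il18r1, Scara5, Ptger3, Plau, Plat and Tnfaip6. Il1a and Il1b, outside this rule, were added after their values were seen. Members and lists were chosen with earlier results of these data known. There were 22 alternative settings, including other scalings, filters, array weights, a 3′ to 5′ covariate, the replicate number as a block and leaving out each array. Same-numbered samples did not deviate together, so the block was not used.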

Additional observations from a re-analysis of the deposited data

Results flagged for a closer look

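Among the partner genes, 26 had line minus tissue differences that differed between the strains by the interaction term of the limma model (difference of log2 differences, tsA58 minus C57BL/6J). In the interleukin 6 family the values were -2.43 for Clcf1, -2.42 for Osmr, -1.33 for Jak1 and -1.23 for Tyk2. In the interleukin 1 family they were -2.91 for Irak3, -2.85 for Il1r1 and -1.04 for Tollip. The NF-kB and C/EBP genes gave -2.50 for Nfkbiz, -1.84 for Birc3, -1.37 for Tnip1, -4.28 for Cebpd, -2.83 for Cebpb and 1.50 for Cebpg.

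Prostanoid genes gave -3.24 for Slco2a1, -2.41 for Ptger2 and -1.19 for Tbxa2r. Acute-phase, serpin and scavenger genes gave -4.80 for Hp, 2.57 for Serpinb5, 2.39 for Serpinb1a, -1.73 for Clec7a and -1.50 for Stab1. Iron and cytokine genes gave 2.34 for Tfrc, -1.66 for Fth1, 2.40 for Il15, -2.18 for Tgfb1 and -1.84 for Vegfa. Other tested probe sets came nearer to 0 or past it for several of these genes, to 0.03 for Tyk2, 0.31 for Nfkbiz, 0.20 for Slco2a1, -0.36 for Cebpd, -0.74 for Osmr, -1.06 for Clcf1, -1.24 for Irak3, 0.50 for Cebpg and 0.56 for Tfrc. Serpinb1a's other probe set gave 0.73. Both strains' tissues enter this difference, and without C57BL/6J tissue replicate 1 or 2 the 26 calls became 14.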

How the results depend on the processing

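Groups of 2 or 3 arrays limit every value here, and levels below the array medians limit the tissue levels of Il6, Lif and Olr1. Of the members, 1 was called between the tissues, against 3 when a 3′ to 5′ actin covariate was added (0 higher and 3 lower), 7 when arrays were centred by their hybridisation controls, and 0 under loess or quantile scaling, no filter, a floor, only the groups compared or the replicate block. Leaving out 1 array gave 0 to 1. Among partners, calls between the lines numbered 16, against 30 with the 3′ to 5′ covariate (8 higher and 22 lower), 25 with array weights (5 and 20) and 50 with hybridisation-control centring (48 and 2). Between the tissues that centring gave 93 calls, all higher, against 20. The comparison of strains gave 26 calls, 46 with array weights and 12 with that centring. The centring also gave splits of 48 higher and 7 lower in the C57BL/6J line minus tissue and 27 and 9 in the tsA58 line minus tissue. Leaving out 1 array gave 43 to 48 calls in tsA58, 38 to 52 in C57BL/6J, 14 to 23 between the lines, 9 to 22 between the tissues and 14 to 37 between the strains. Centring turned the tsA58 line minus C57BL/6J line positive for the members Saa3 (0.62), Il6 (0.55), Lif (0.38) and Ptgs2 (0.78) and, among partners called between the lines, for Irak3 (0.00299), Il1rap (0.00870) and Clec7a (0.0902), and, among values called under either scaling, reversed the tissue difference for Olr1 (1.86), Lif (2.00), Ptx3 (1.89), Il6ra (1.67), Lifr (2.09), Il1rap (1.45), Plat (2.03) and Plaur (2.09); the 3′ to 5′ covariate reversed Lifr between the lines (-1.35). The cause was not tested. The array weights stopped before convergence. With the replicate block the panel gave 48 calls in tsA58, 49 in C57BL/6J, 19 between the lines, 17 between the tissues and 24 between the strains; same-numbered pairs of samples correlated at -0.156 to 0.250 in their deviations, and others at -0.175 to 0.203.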
